A study of Mus musculus with 6 samples.

Results

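Cells oxidise or reduce reactive aldehydes and ketones with families of soluble and membrane enzymes, and 10 mouse genes for such enzymes were followed here in activated B cells with and without the RNA-binding protein hnRNPL. They are the aldehyde dehydrogenases *Aldh2*, *Aldh1b1*, *Aldh3a2* and *Aldh9a1*, the carbonyl reductases *Cbr1*, *Cbr3* and *Cbr4*, and the short-chain reductases *Dcxr*, *Dhrs1* and *Dhrs3*. Each was taken by its gene name, 1 row per gene, from a table of 55421 genes. The enzymes were chosen by function with the difference between the genotypes already known, so their values in the comparison are a description and carry no test.

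The 3 WT and 3 hnRNPL-deficient libraries were each made from the splenic B cells of 1 mouse, cultured for 24 h with LPS (5 μg/ml) and the cytokine IL-4 (5 ng/ml), a mixture that drives resting B cells to grow and divide. WT mice carried Rosa mT/mG and CD21-cre, hnRNPL-deficient mice carried the same alleles together with hnRNPL F/F, and all were on a C57BL6/J background, of either sex, and over 6 weeks old by the study's methods. The CD21-cre recombinase acts mostly in mature B cells but also in some other tissues during development, and GFP+ cells, in which it had been active, were sorted before RNA was taken. P-values given below weigh the difference between the groups against the spread between these libraries, which limma moderates across genes.

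*Hnrnpl* itself (chr7:28808541-28822266, plus strand, GRCm38) fell from 24708 ± 761 normalized counts in WT to 1664 ± 459 in hnRNPL-deficient cells (SD, n = 3 each). On the log2 scale this was -3.93 (standard error 0.173, limma with Benjamini-Hochberg adjustment, adjusted p = 2.23e-05). The summed level of 8 B-cell markers lay between 290613 and 368995 in WT and between 284906 and 335501 in hnRNPL-deficient libraries. Of 10 myeloid markers *Adgre1* stood out, at 278 ± 39.9 normalized counts in WT and 1308 ± 80.1 without hnRNPL, and the myeloid sum was 260 to 332 in WT and 1239 to 1384 in hnRNPL-deficient libraries. *Itgam* lay between 5.48 and 18.6 over all libraries, *Csf1r* averaged 4.04 and 4.16, and the granulocyte genes *S100a8* and *S100a9* at 0. The T-cell sum of 8 genes, mostly *Lck*, was 928 to 1044 in WT and 626 to 873 without hnRNPL, the erythroid sum of 8 genes 17.6 to 39.5 against 55.0 to 84.8, and the NK-cell and platelet sum of 6 genes 13.9 to 39.8 against 24.3 to 32.9. Plasma-cell genes (5) summed to 33848 to 39454 against 33285 to 36338. *Xist* was high in 1 library of each group, at 98507 normalized counts in WT library 3 and 98219 in hnRNPL-deficient library 2. The libraries held between 40395186 and 75180749 reads on genes, and hnRNPL-deficient library 3 was the shallowest and had the highest share of mitochondrial transcripts, 8.92% against 5.57% to 7.06% elsewhere. The part of these differences in the results below was not tested. In RNA from a bulk population, fewer expressing cells and less RNA per cell cannot be told apart.

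Aldehyde dehydrogenases use NAD or NADP to turn an aldehyde into an acid, which ends its ability to bind proteins and DNA. Carbonyl reductases and many short-chain dehydrogenases work in the other direction, using NADPH to turn a ketone, quinone or aldehyde into an alcohol. Such carbonyls come from alcohol, lipid peroxidation, sugars, vitamin A and drugs, and dividing cells also make them in their own metabolism.

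Sequences around annotated RefSeq starts are shown for 5 enzymes. They set beside each other 3 genes that were higher without hnRNPL (*Dcxr*, *Dhrs1*, *Dhrs3*) and 2 that were not (*Aldh3a2*, *Aldh9a1*). The sequences come from RefSeq (GRCm38.p6) and run 5′ to 3′ on the gene's strand from 130 bases before to 20 bases after its RefSeq start. For *Aldh3a2* this start lies inside the gene coordinates given below, and so does the whole stretch shown. They lie at chr11:120727265-120727414 (minus strand) for *Dcxr*, chr14:55745665-55745814 (minus) for *Dhrs1*, chr4:144892697-144892846 (plus, the first of its 3 starts) for *Dhrs3*, chr11:61267167-61267316 (minus) for *Aldh3a2* and chr1:167349861-167350010 (plus) for *Aldh9a1*. Capitals mark, on either strand, the antioxidant response element core TGACNNNGC, the E-box CACGTG, the CCAAT box CCAAT, the GC box GGGCGG or the TATA box TATAAA.
Dcxr: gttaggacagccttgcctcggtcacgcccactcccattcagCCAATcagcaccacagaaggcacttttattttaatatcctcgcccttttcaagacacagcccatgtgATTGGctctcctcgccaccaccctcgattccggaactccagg
Dhrs1: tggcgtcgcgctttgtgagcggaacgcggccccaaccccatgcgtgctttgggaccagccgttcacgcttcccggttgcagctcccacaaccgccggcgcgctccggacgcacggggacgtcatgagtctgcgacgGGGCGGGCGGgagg
Dhrs3: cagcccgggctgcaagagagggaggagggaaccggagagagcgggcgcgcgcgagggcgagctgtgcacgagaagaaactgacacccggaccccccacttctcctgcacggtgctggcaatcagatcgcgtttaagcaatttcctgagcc
Aldh3a2: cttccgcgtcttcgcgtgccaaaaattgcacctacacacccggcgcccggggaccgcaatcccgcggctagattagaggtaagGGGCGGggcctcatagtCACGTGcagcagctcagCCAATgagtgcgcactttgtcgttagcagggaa
Aldh9a1: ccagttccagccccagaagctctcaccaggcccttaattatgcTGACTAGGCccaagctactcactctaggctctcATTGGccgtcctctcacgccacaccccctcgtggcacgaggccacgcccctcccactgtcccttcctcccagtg

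In these stretches *Dcxr* held 2 CCAAT boxes, *Dhrs1* held 2 overlapping GC boxes just past its start, and the stretch at the first *Dhrs3* start held none of the 5 motifs. The full windows of the other 2 *Dhrs3* starts, which are not shown and overlap each other, held 2 and 1 CCAAT boxes. The box of the latter window is the same element as 1 of the 2 in the former. *Aldh9a1*, which was not higher without hnRNPL, held the antioxidant response element core and a CCAAT box, and *Aldh3a2* held an E-box, a CCAAT box and a GC box. The full promoter windows, 250 bases before to 50 after a start, were given for 9 of the 10 genes. No window was given for *Aldh2*, which was also higher without hnRNPL. Among the 32851 such windows of the table, 12.4% held the antioxidant response element core, 7.15% the E-box, 37.4% the CCAAT box, 35.7% the GC box and 13.6% the TATA box. No window of the 9 genes held a TATA box, and *Aldh9a1* alone held the antioxidant response element core. The *Dhrs1* window had a GC content of 74.3%, that of *Cbr1* 44.0%, and the median window 52.7%. The full windows of *Cbr1*, of *Aldh3a2* and of the other 2 *Dhrs3* starts lay inside the gene coordinates given below, not upstream of them. A match of letters is a description and does not show that a factor binds there.

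In hnRNPL-deficient cells 4 of the 10 enzymes, *Dcxr*, *Dhrs3*, *Aldh2* and *Dhrs1*, were higher by the call rule, which asked for an adjusted p under 0.1 and a change of at least 1.5-fold, and 0 were lower. Over all 17640 genes tested, the same rule called 7.28% higher and 4.08% lower. In 5 enzymes, these 4 and *Cbr1*, every hnRNPL-deficient library lay above every WT library, a pattern found in 17.7% of all genes, and in 0 enzymes did every hnRNPL-deficient library lie below, against 16.3% of all genes. The 10 enzymes had a median log2 fold change of 0.27 and all tested genes one of -0.03. All 10 passed the filter of a mean of at least 10 normalized counts. Since the enzymes were picked with this comparison known, nothing is read from these counts. With 3 libraries against 3, the smallest two-sided p that exact permutation of 1 gene's values allows is 0.1.

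**Figure D1:**
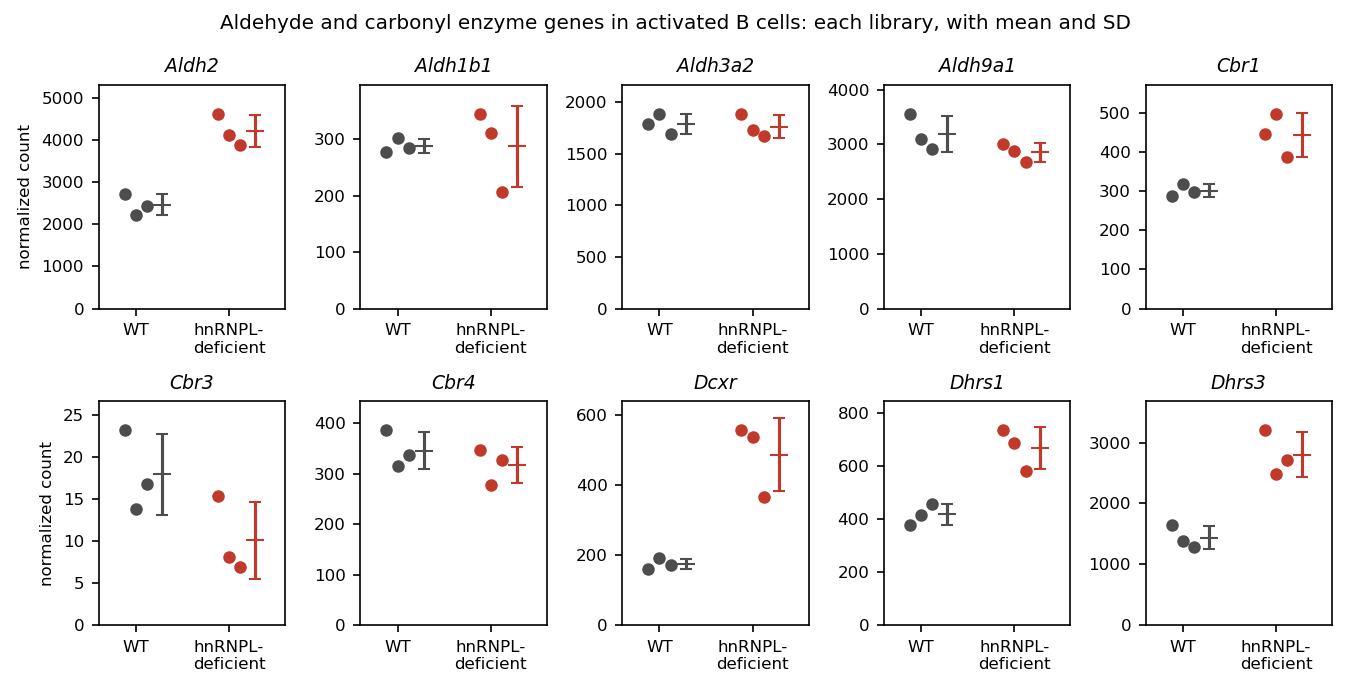
Normalized read counts (y axis, linear from 0, its own scale in each panel) of the 10 enzyme genes in the 3 WT (grey) and 3 hnRNPL-deficient (red) libraries, 1 point per library, with the mean and SD beside them. The groups are apart for *Aldh2*, *Cbr1*, *Dcxr*, *Dhrs1* and *Dhrs3*, and their points overlap for the other 5 genes.

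Among the aldehyde dehydrogenases, *Aldh2* was higher without hnRNPL and the other 3 did not pass the call rule. ALDH2 is the mitochondrial enzyme that oxidises acetaldehyde and products of lipid peroxidation. *Aldh2* (chr5:121566027-121593824, minus strand) had normalized counts of 2721, 2225 and 2442 in WT libraries 1 to 3 and of 4627, 4121 and 3895 in hnRNPL-deficient libraries 1 to 3. The lowest hnRNPL-deficient value thus lay well above the highest WT value. Means were 2463 ± 249 and 4214 ± 374 (SD, n = 3), a ratio of 1.71, fitted as a log2 fold change of 0.78 (limma standard error 0.115, 95% interval 0.51 to 1.04). The gene overlaps *Gm42879*, a gene of uncertain status on the opposite strand, which strand-specific counting keeps apart from it.

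ALDH1B1 is another mitochondrial aldehyde dehydrogenase that can use acetaldehyde. *Aldh1b1* (chr4:45799022-45804604, plus strand) had 277, 303 and 284 normalized counts in WT libraries and 345, 311 and 207 in hnRNPL-deficient libraries. Libraries 1 and 2 without hnRNPL lay above all WT libraries and library 3, the shallowest, lay below all of them. The mean was 288 in both groups, with an SD of 13.0 in WT and of 72.0 without hnRNPL, so that the 95% interval of the log2 fold change of -0.03 reached from -0.52 to 0.45. Leaving out hnRNPL-deficient library 3 turned this difference to 0.19.

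ALDH3A2 oxidises long-chain fatty aldehydes at the endoplasmic reticulum, and its loss causes Sjögren-Larsson syndrome in people. *Aldh3a2* (chr11:61223417-61267464, minus strand) was, like *Aldh1b1*, close to level between the groups, with 1784, 1881 and 1686 normalized counts in WT and 1887, 1728 and 1674 without hnRNPL. The groups overlapped over most of their range. The log2 fold change was -0.02 (standard error 0.104, 95% interval -0.25 to 0.22), an interval that leaves room for a change of either sign smaller than 1.5-fold.

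ALDH9A1 oxidises an intermediate of carnitine synthesis as well as other amino-aldehydes. *Aldh9a1* (chr1:167349991-167368532, plus strand) had 3562, 3093 and 2911 normalized counts in WT libraries and 3011, 2882 and 2673 in hnRNPL-deficient libraries. The means, 3189 ± 336 and 2855 ± 171, differed by about 1 SD of the WT group, and hnRNPL-deficient library 1 lay above WT library 3. The log2 fold change was -0.16 (standard error 0.110, 95% interval -0.41 to 0.10).

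**Figure D2:**
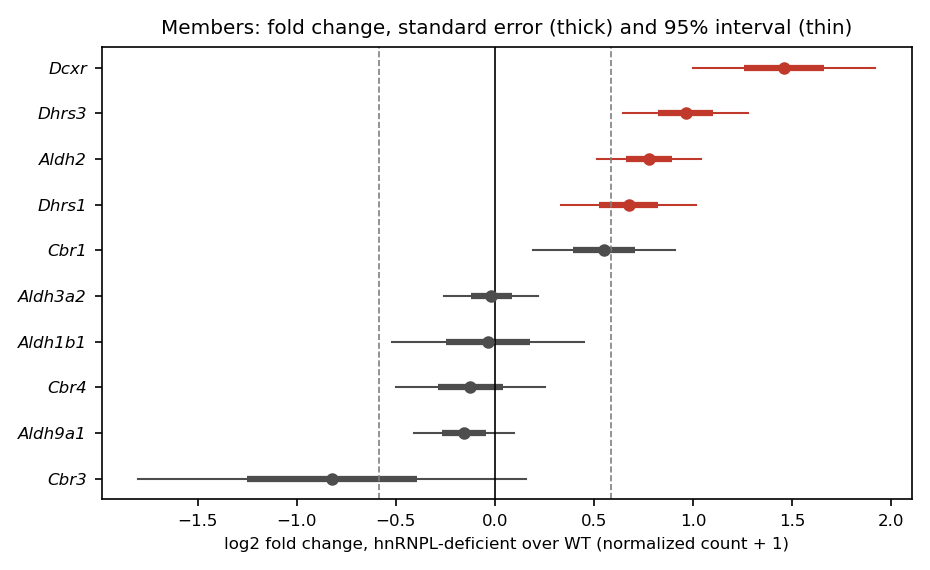
Log2 fold change of hnRNPL-deficient over WT cells (x axis, on log2(normalized count + 1)) for each of the 10 enzymes, with 1 standard error (thick) and the 95% interval (thin); dashed lines mark 1.5-fold and red marks genes past the call rule. *Dcxr* stands highest at 1.46, *Cbr1* at 0.55 falls just short of the line, and the interval of the sparse gene *Cbr3* is the widest.

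Of the 3 carbonyl reductases, *Cbr1* was higher in every hnRNPL-deficient library without reaching 1.5-fold. CBR1 is a major cytosolic reductase of quinones, prostaglandins and carbonyl-bearing drugs such as doxorubicin. *Cbr1* (chr16:93605853-93610505, plus strand) had 287, 318 and 298 normalized counts in WT and 445, 498 and 387 without hnRNPL. There was no overlap between the groups. The ratio of means was 1.47, fitted as a log2 fold change of 0.55 (standard error 0.156, 95% interval 0.19 to 0.91). *Cbr1* and *Dhrs1* were the enzymes nearest to the 1.5-fold limit from below and from above. *Cbr1* passed the call rule when libraries were scaled to equal totals, at 0.61, and when hnRNPL-deficient library 3 was left out, at 0.64.

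CBR3 is a close relative of CBR1 encoded on the same strand of chromosome 16. *Cbr3* (chr16:93683215-93690990) was nearly silent in these cells, with 20, 16 and 22 reads in WT and 17, 8 and 5 reads in hnRNPL-deficient libraries. These reads correspond to 23.2, 13.8 and 16.8 normalized counts in WT and 15.3, 8.08 and 6.85 without hnRNPL. The groups overlapped, since hnRNPL-deficient library 1 lay above WT library 2. The log2 fold change of -0.82 had a standard error of 0.429 and a 95% interval from -1.80 to 0.16, so at this depth neither a fall of more than 2-fold nor an absence of change could be told from the data. Of the 10 enzymes it was the one with the most negative estimate, opposite in sign to that of *Cbr1*.

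CBR4 is a mitochondrial reductase that takes part in fatty acid synthesis in that organelle and can reduce quinones. *Cbr4* (chr8:61487734-61506694, plus strand) had 386, 315 and 337 normalized counts in WT and 348, 278 and 328 without hnRNPL. The groups overlapped, with hnRNPL-deficient library 1 above 2 of the WT libraries. The log2 fold change was -0.12 (standard error 0.165, 95% interval -0.50 to 0.25).

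All 3 of the remaining short-chain reductases were higher in hnRNPL-deficient cells. DCXR reduces L-xylulose and small dicarbonyls such as diacetyl. *Dcxr* (chr11:120725399-120727281, minus strand) had 161, 190.2 and 171 normalized counts in WT and 556, 538 and 366 without hnRNPL. Its lowest hnRNPL-deficient library, again library 3, was still above every WT library, and the hnRNPL-deficient libraries differed more among themselves (coefficient of variation 21.6%) than the WT libraries did (8.48%). Means were 174 ± 14.8 and 487 ± 105, a ratio of 2.80, fitted as a log2 fold change of 1.46 (standard error 0.202, 95% interval 1.00 to 1.92). Leaving out 1 library at a time gave 1.35 to 1.65.

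DHRS3 reduces all-trans-retinal to retinol and so limits the supply of retinoic acid. *Dhrs3* (chr4:144892827-144928209, plus strand) had 1648, 1384 and 1285 normalized counts in WT libraries and 3206, 2484 and 2723 in hnRNPL-deficient libraries. The groups were well apart and varied to a like extent, with coefficients of variation of 13.0% and 13.1%. The ratio of the means, 1439 ± 188 and 2804 ± 368, was 1.95, fitted as a log2 fold change of 0.96 (standard error 0.138, 95% interval 0.65 to 1.28).

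DHRS1 is a less studied member of the same family. *Dhrs1* (chr14:55739020-55745690, minus strand) had 378, 416 and 457 normalized counts in WT and 734, 687 and 581 without hnRNPL. The lowest hnRNPL-deficient library, library 3, lay above the highest WT library. Means were 417 ± 39.1 and 667 ± 78.2, fitted as a log2 fold change of 0.67 (standard error 0.150, 95% interval 0.33 to 1.02).

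Library 3 without hnRNPL gave the lowest hnRNPL-deficient value for 8 of the 10 enzymes, the exceptions being *Dhrs3* and *Cbr4*, for which library 2 was lowest. Adding the 10 enzymes together, WT libraries held 11228, 10139 and 9888 normalized counts and hnRNPL-deficient libraries 15175, 13533 and 12840. The sums did not overlap, and most of the gap came from *Aldh2* and *Dhrs3*.

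Levels of different genes can be set side by side only per length, so normalized counts were divided by the kilobases of annotated exon. The exons of all annotated transcripts of a gene were merged for this. That length can exceed the length of the transcripts in use, so the order is approximate. In WT cells the order of the mean levels per kb was *Aldh9a1* (942.5), *Dhrs3* (492), *Aldh2* (480.4), *Aldh3a2* (318), *Dcxr* (152), *Dhrs1* (151), *Aldh1b1* (125), *Cbr1* (118), *Cbr4* (55.3) and *Cbr3* (14.3). The ranges of the WT libraries overlapped for the neighbouring pairs *Dhrs3* and *Aldh2*, *Dcxr* and *Dhrs1*, and *Aldh1b1* and *Cbr1*, while the other neighbours in this order were apart. In hnRNPL-deficient cells *Dhrs3* came first at 958 (849 to 1095), followed by *Aldh9a1* at 844 (790.1 to 890.1) and *Aldh2* at 822 (760 to 903). The ranges of these 3 overlapped at each step. *Dcxr*, at 426 (320 to 486), stood above *Aldh3a2*, at 314 (298 to 336), though their ranges overlapped as well. Below them came *Dhrs1* (242), *Cbr1* (174), *Aldh1b1* (125), *Cbr4* (50.8) and *Cbr3* (8.04).

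**Figure D3:**
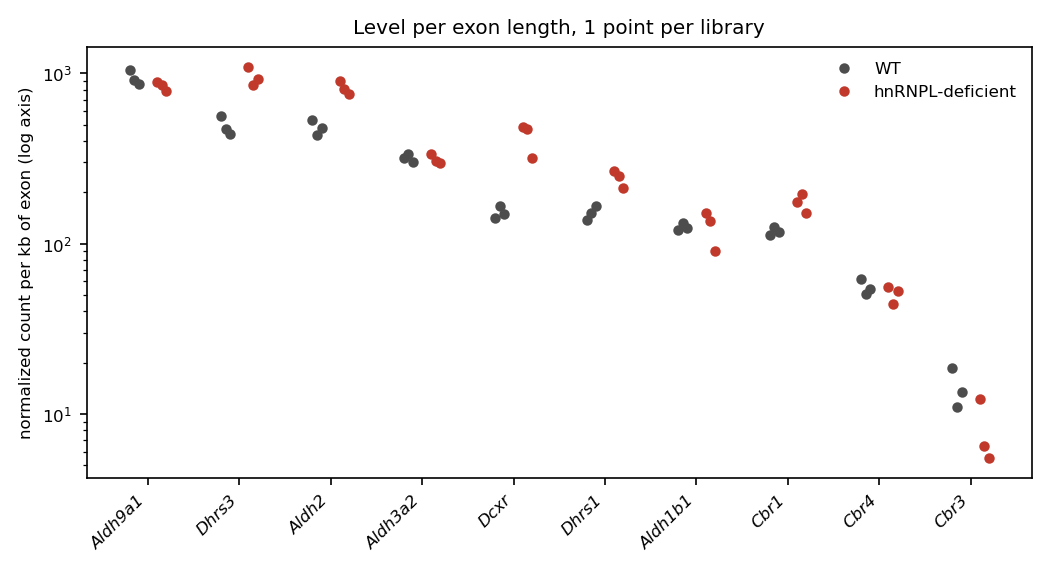
Normalized counts per kb of exon (y axis, log scale) for the 10 enzymes, ordered by their WT mean, with 1 point per library (WT grey, hnRNPL-deficient red). *Aldh9a1* leads in WT at 942.5, and in hnRNPL-deficient cells *Dhrs3*, *Aldh9a1* and *Aldh2* lie close together between 760 and 1095.

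Related genes were taken from 6 lists, on the other aldehyde dehydrogenases, alcohol dehydrogenases, aldo-keto reductases, other short-chain dehydrogenases and reductases, glyoxalases with other carbonyl or enone enzymes, and retinoid handling. Of 120 genes listed, 118 were in the table and 61 had a mean of at least 10 normalized counts. Among these 61, 8 were higher and 2 lower in hnRNPL-deficient cells, with a median log2 fold change of -0.01, against -0.03 over all genes. Over all genes tested 7.28% were called higher and 4.08% lower, shares that also stand beside the counts of each list below. Adjusted p-values for these genes come from limma with Benjamini-Hochberg adjustment over the 17640 genes.

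Among the other aldehyde dehydrogenases 1 of 9 tested genes rose and 0 fell, with a median of -0.08. *Aldh4a1*, whose mitochondrial product completes proline breakdown, rose from 223 ± 15.4 to 377 ± 23.4 normalized counts (log2 fold change 0.76, adjusted p = 0.0180). *Aldh18a1*, which starts proline synthesis, and *Aldh16a1* were the most abundant of the list, and their log2 fold changes of -0.27 and -0.08 did not pass (adjusted p = 0.144 and 0.843). Of 3 tested genes on the alcohol dehydrogenase list, which also holds the esterase gene *Esd*, 0 rose and 0 fell. The most abundant were *Esd* and the dehydrogenase gene *Adh5*, whose products act in turn to clear formaldehyde bound to glutathione, and they had log2 fold changes of -0.02 and -0.06 (adjusted p = 0.912 and 0.763).

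Among the aldo-keto reductases, NADPH-dependent enzymes that overlap in substrates with CBR1 and DCXR, 2 of 6 tested genes rose and 0 fell, with a median of 0.42. *Akr1e1* went from 247, 166 and 226 normalized counts in WT to 527, 441 and 382 without hnRNPL (log2 fold change 1.08, adjusted p = 0.0140). *Akr1b10* rose from 174 ± 17.0 to 313 ± 13.7 (log2 fold change 0.85, adjusted p = 0.0152). By contrast *Akr1b3*, the aldose reductase gene, and *Akr1a1*, which were the most abundant with WT means of 4764 and 4869 normalized counts, had log2 fold changes of -0.01 and -0.10 (adjusted p = 0.975 and 0.622).

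Of 29 other short-chain dehydrogenases and reductases tested, 4 rose and 0 fell, and the median was -0.01. *Hsd17b11*, a steroid and lipid-droplet enzyme, had a log2 fold change of 0.87 (adjusted p = 0.0541), *Dhrs7* of 0.78 (adjusted p = 0.0359), *Sdr42e1* of 0.76 (adjusted p = 0.0412) and *Decr2*, a peroxisomal reductase of unsaturated fatty acids, of 0.59 (adjusted p = 0.0230). The calls of *Hsd17b11* and *Sdr42e1* were lost when WT library 2 or 3 or hnRNPL-deficient library 1 was left out, as well as without hnRNPL-deficient library 3 for the former and 2 for the latter, that of *Decr2* without WT library 2 or hnRNPL-deficient library 1, and that of *Dhrs7* without hnRNPL-deficient library 1. Beyond left-out libraries, *Hsd17b11* also lost its call with no mean-variance trend, *Sdr42e1* by edgeR and *Decr2* with quantile normalization. *Hsd17b12* and *Rdh11*, the most abundant genes of the list, had log2 fold changes of -0.13 and -0.17 (adjusted p = 0.468 and 0.329). RDH11, like DHRS3, reduces retinal.

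In the glyoxalase and enone list, 1 of 10 tested genes rose and 1 fell. *Ptgr1*, whose product reduces reactive enones and prostaglandin derivatives and which was too low in level for the naming rule and is named after its values were seen, had 12.8, 21.6 and 22.9 normalized counts in WT and 64.9, 82.8 and 39.7 without hnRNPL (log2 fold change 1.64, adjusted p = 0.0295). *Ptgr2*, a relative that reduces keto-prostaglandins, fell from 1250 ± 135 to 797 ± 17.2 (log2 fold change -0.64, adjusted p = 0.0134), a call that was lost without WT library 1. *Park7* and *Glo1*, the most abundant genes of the list, had log2 fold changes of -0.16 and 0.11 (adjusted p = 0.413 and 0.589).

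The retinoid genes bear on *Dhrs3*, and only 4 of the 18 listed were high enough to test. Of these 4, 0 rose and 1 fell, and the median was -0.54. *Rara*, the gene of the retinoic acid receptor alpha, fell from 2459, 3626 and 3181 normalized counts in WT to 1294, 1832 and 1188 without hnRNPL (log2 fold change -1.11, adjusted p = 0.00987). *Rxrb*, which encodes a partner receptor, had a log2 fold change of -0.58 that did not pass by limma (adjusted p = 0.121). It was called lower under 4 alternatives, namely edgeR (-0.77) and DESeq2 (-0.75) on reads, and the fits that left out WT library 1 (-0.79) or hnRNPL-deficient library 2 (-0.73).

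**Figure D4:**
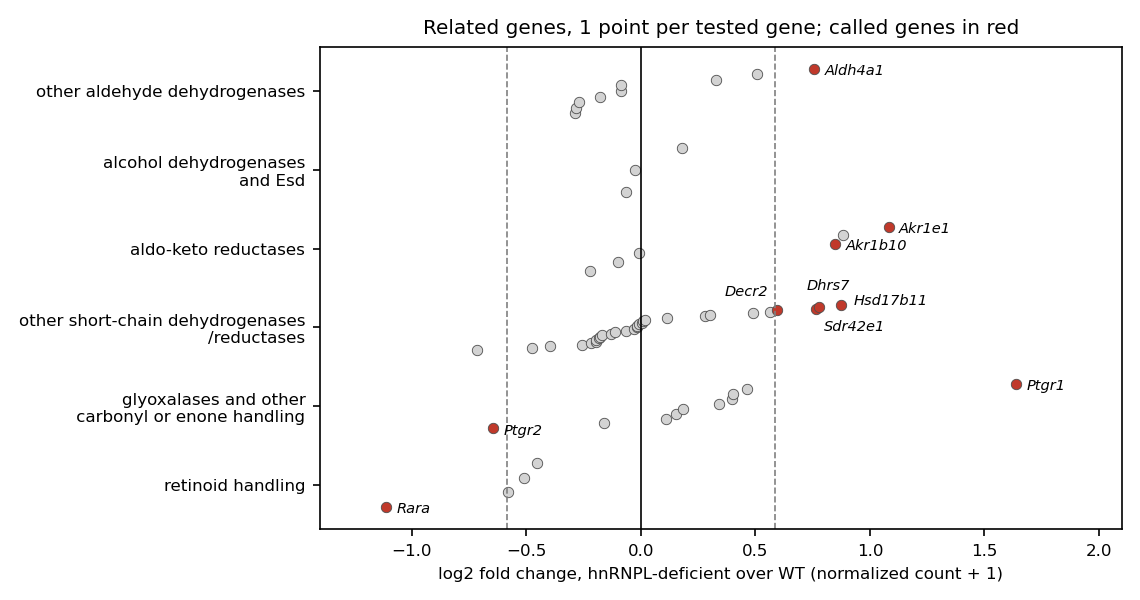
Log2 fold change (x axis) of the 61 tested related genes in 6 lists (y axis), 1 point per gene, with called genes in red and named, and dashed lines at 1.5-fold. The 8 called genes at the right fall in 4 of the lists, and the 2 at the left are *Ptgr2* and *Rara*.

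Genes that lie within 50 kb of the enzymes were compared with them, by a rule chosen after the data were seen. Beside the counts of neighbours given here and below stand the shares over all genes tested, 7.28% higher and 4.08% lower. Around the 4 enzymes that were higher by the call rule, 15 neighbouring genes were tested, of which 1 was higher and 1 lower. *Acad10*, 27202 bases from *Aldh2*, had a log2 fold change of 0.73 (adjusted p = 0.0557), a call lost by edgeR, by DESeq2 and when any of 5 single libraries was left out, and *Hmga1b*, 35513 bases from *Dcxr*, one of -0.90 (adjusted p = 0.00382). *Hmga1b* closely resembles *Hmga1*, with which reads could be shared. The closest neighbour of all was *Nop9*, which begins 3 bases from *Dhrs1* on the opposite strand. It had 2738 ± 139 normalized counts in WT and 2269 ± 358 without hnRNPL (log2 fold change -0.28, adjusted p = 0.203), while *Dhrs1* was higher by 0.67 on the log2 scale.

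Around the 6 other enzymes 7 neighbours were tested, of which 1 was higher and 1 lower. *Mgst3*, a membrane glutathione transferase gene that lies 3434 bases from *Aldh9a1* on the opposite strand, had 6.96, 19.9 and 11.5 normalized counts in WT and 53.2, 75.7 and 27.4 without hnRNPL (log2 fold change 1.94, adjusted p = 0.0391). *Dop1b*, 20914 bases from *Cbr3*, had a log2 fold change of -0.59 (adjusted p = 0.0200) that lay at the 1.5-fold limit. The call of *Mgst3* was lost by edgeR and without WT library 3 or hnRNPL-deficient library 1 or 2. That of *Dop1b* was lost with a pseudocount of 5, equal totals or TMM and without WT library 2 or 3 or hnRNPL-deficient library 1 or 3. *Aldh1b1* and *Cbr4* had 0 tested neighbours.

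**Figure D5:**
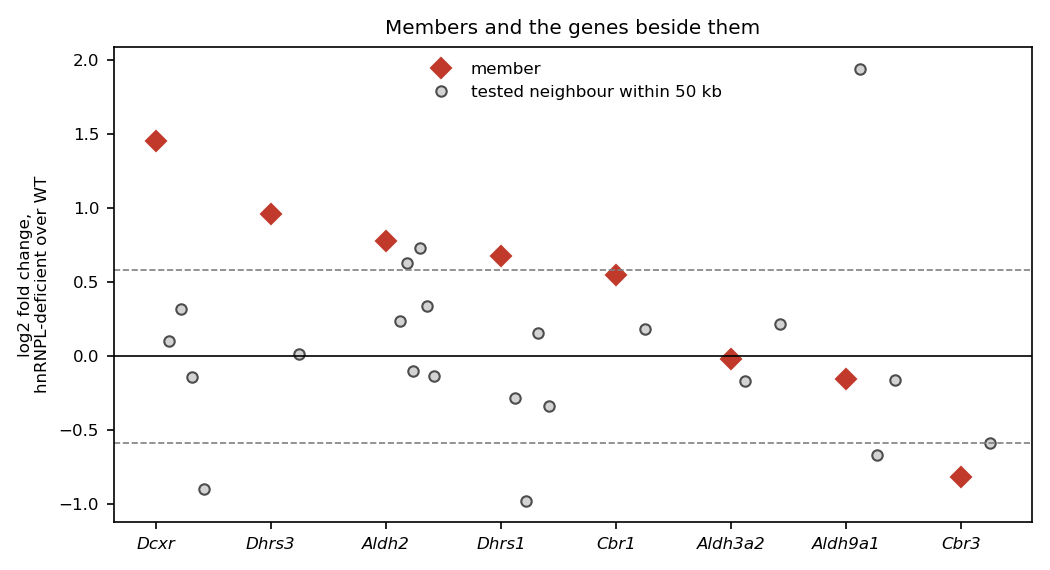
Log2 fold change (y axis) of 8 enzymes (red diamonds) and of the tested genes within 50 kb of each (grey circles, nearest gene leftmost), with dashed lines at 1.5-fold. Beside *Dcxr*, *Dhrs3* and *Dhrs1* the circles lie well below the diamond, and above *Aldh9a1* the circle at 1.94 is *Mgst3*.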

How the data were processed

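RNA-seq of 3 WT and 3 hnRNPL-deficient libraries was analysed, grouped by the labels. The authors trimmed reads with fastp 0.23.1, aligned them to mm10 with STAR 2.7.9a, counted them per gene and strand with featureCounts, and divided the counts by DESeq2 1.38.2 size factors. These normalized counts, per gene and library, are the signal the authors deposited. Columns with the authors' own comparison (fold changes with errors, the statistic, p-values) were not used. All values (100%) were whole multiples of 1 read (within 0.001), which gave the reads per library, but the automatic check did not accept 1 column, that of hnRNPL-deficient library 2, so the count tests used 5 libraries.

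log2(normalized count + 1) was tested with limma 3.58.1 (R 4.3.3) with a mean-variance trend for the 17640 genes whose mean over the libraries was 10 or more, with Benjamini-Hochberg adjustment. The call rule, an adjusted p under 0.1 and at least 1.5-fold, uses the study's thresholds. A fold change on this scale understates changes of low genes. The script was tested on simulated data first. Alternatives were other pseudocounts, filters, scalings, variance settings and thresholds, the replicate block, each library left out, and edgeR 4.0.16 and DESeq2 1.42.0 on reads.

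Coordinates and exon lengths come from GENCODE on GRCm38 (mm10), an earlier release than the authors used, which matched 17615 tested genes. Promoters are from RefSeq, whose starts differ from those of GENCODE for some genes, among them *Aldh3a2* and *Cbr1*. The enzymes and gene lists were chosen with earlier results of these data known. Named are all 10 enzymes, *Hnrnpl*, from each related list genes called at a mean of 50 or more (6 at most) and the 2 most abundant, and the most abundant markers.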

Additional observations from a re-analysis of the deposited data

How the results depend on the processing

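Of the 10 enzymes, 4 to 5 were called higher with 1 library left out, 5 with equal totals (*Cbr1* being the added one) and 1 at an adjusted p under 0.05 with a 2-fold change, where 610 genes were higher and 216 lower, and related genes were 2 higher and 1 lower. Called lower were 0 enzymes under every alternative run. Leaving out 1 library gave 850 to 1124 higher and 483 to 695 lower genes, the fewest higher ones (850) without WT library 3. Related genes were then 4 to 9 higher (4 without hnRNPL-deficient library 1, 5 without WT library 2) and 2 to 3 lower, and DESeq2 called 4 of them lower. On the reads of 5 libraries edgeR called 1072 genes higher and 707 lower, and DESeq2 1192 and 746. With the replicate block, 1755 genes were higher, 1018 lower, 4 enzymes higher, and 8 related genes higher and 3 lower. Whether the replicate numbers pair the libraries was not settled, and the main fit used no pairing. Across genes, with each group's mean taken out, same-number libraries 1 to 3 correlated at 0.43, 0.32 and 0.07. Libraries of different number correlated at -0.46 to 0.31. For each hnRNPL-deficient library the same-number WT library was the highest, narrowly for library 2 (0.32 against 0.31) and library 3 (0.07 against 0.05). WT library 3 correlated more with hnRNPL-deficient library 2 (0.31) than with library 3 (0.07). *Xist* was high in WT library 3 and hnRNPL-deficient library 2, which differ in number, and its part in these correlations was not tested.

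Log2 fold changes near 0 turned sign under some settings, and the cause was not tested. With equal totals *Aldh1b1* was 0.021, *Aldh3a2* 0.038, *Esd* 0.031 and *Akr1b3* 0.048, a scaling that moved the median of all genes from -0.03 to 0.03. With TMM *Aldh3a2* was 0.0042 and *Akr1b3* 0.014. With quantile normalization *Aldh3a2* was 0.00035, *Esd* 0.061, *Adh5* 0.013 and *Akr1b3* 0.079. On reads *Esd* was 0.021 by edgeR and 0.034 by DESeq2, and *Aldh3a2* 0.0069 by DESeq2. With 1 library left out, *Aldh1b1* ranged from -0.18 to 0.19, *Aldh3a2* from -0.068 to 0.022, *Esd* from -0.093 to 0.050, *Adh5* from -0.12 to 0.039, *Akr1b3* from -0.071 to 0.11, *Akr1a1* from -0.18 to 0.014 and *Aldh16a1* from -0.31 to 0.079.

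Over the alternatives *Dcxr* ranged from 1.35 to 1.65, *Dhrs3* from 0.86 to 1.06, *Aldh2* from 0.71 to 0.85, *Dhrs1* from 0.60 to 0.77 and *Cbr1* from 0.46 to 0.64. *Cbr3*, at 5 to 22 reads per library, ranged from -1.14 to -0.61 and was not tested at a mean of at least 50. Protein levels and enzyme activity were not analysed here.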
